A study of Mus musculus with 6 samples.

Results

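The genes described here encode the core proteins that make microRNAs and siRNAs and use them to silence mRNAs. They are Drosha and Dgcr8, Xpo5, Dicer1 and Tarbp2, the Argonaute genes Ago1, Ago2, Ago3 and Ago4, and Tnrc6a. They were taken by name, 10 of the 38087 gene IDs in the count files, after the IDs were matched to symbols of GENCODE mouse release M21. All 10 had a single ID and all 10 passed the filter on low counts, which kept 16666 genes. The cells were HL-1, a mouse atrial cardiomyocyte line that descends from an atrial tumour driven by a viral large T antigen. The tested cells received 100 nM of an siRNA against Circ-INSR, which is a circular RNA made from Insr, the gene of the insulin receptor. The control cells received a scrambled siRNA, whose dose is not stated separately. Both groups therefore received an siRNA, and no cells without one are among the samples. Each group had 3 libraries of poly(A)-selected RNA, and the time after treatment is not given in the sources used here.

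A microRNA starts as a hairpin in a long primary transcript. The Microprocessor, made of the nuclease DROSHA and its RNA-binding partner DGCR8, cuts the hairpin out in the nucleus, and Exportin-5 carries it to the cytoplasm. There DICER, helped by TRBP, trims it to a short duplex, of which an Argonaute protein keeps a strand. An siRNA given as a short duplex enters the pathway at the Argonaute step. Argonaute binds mRNAs that pair with the seed near the 5′ end of the small RNA and, through TNRC6 proteins, recruits enzymes that shorten the poly(A) tail. In the heart muscle of mice, loss of Dicer or Dgcr8 is known to cause heart failure.

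Library totals ran from 68468620 to 77037474 counts after Circ-INSR siRNA and from 60024750 to 62523602 counts after control siRNA. CPM is the usual depth-scaled count, here with TMM-adjusted library sizes, and 3 counts were worth between 0.0395 and 0.0496 CPM. Whether the 3 libraries of a group are separate cultures is not given, and p-values therefore reflect the spread among these samples, which may be technical. Control replicate 3 differed from its own group: the chi-square statistic per gene was 31.1 against control replicate 1 and 21.6 against control replicate 2, while those 2 libraries differed from each other by 6.95. Genes in the top decile of exonic length, from 9219 bases, had a median log2 deviation of -0.14 there, against values from -0.01 to 0.05 in the other libraries, and 4 of the 10 genes described here (Dicer1, Ago2, Ago3 and Tnrc6a) are that long. Control replicate 3 was the lowest control for 8 of the 10 genes, compared with 37.4% of all genes tested, so the result for each of the 10 genes is also given without it. Insr, the gene that hosts the targeted circle, had 89.2 CPM in each Circ-INSR siRNA library, against 129.0, 127.6 and 103.8 CPM in control libraries, a log2 fold change of -0.43 (SE 0.07; edgeR adjusted p = 0.000393). Gene counts from poly(A) RNA reflect mainly linear transcripts, and the level of the circle itself was not measured. Of 17 atrial cardiomyocyte markers 0 stayed under 1 CPM in every library, and their summed level was 8279 to 8415 CPM after Circ-INSR siRNA and 7513 to 7800 CPM after control siRNA, but 8 were called higher and 5 lower, Tnnt2 (log2 fold change -0.73) and Gja5 (-0.70) among the lower ones. The summed level of 4 smooth muscle markers was 6426 to 6658 CPM after Circ-INSR siRNA and 3992 to 4114 CPM after control siRNA, with 4 of 4 higher. That of 6 endothelial markers was 82.8 to 86.8 CPM after Circ-INSR siRNA and 27.3 to 30.7 CPM after control siRNA, with 2 called higher, 0 lower and 3 of the 6 under 1 CPM in every library. That of 8 fibroblast markers was 135.4 to 153.6 CPM against 175.5 to 193.1 CPM in controls, with 4 of the 8 under 1 CPM in every library and Tcf21 at 0. Within that list only Col1a1 was called lower (log2 fold change -0.50), whereas Col1a2 (1.67) and Col3a1 (0.87) were called higher. The sum of 5 macrophage and leukocyte markers was 3.91 to 4.25 CPM against 6.42 to 7.47 CPM in controls, with 0 called higher, 2 lower, 3 of the 5 under 1 CPM in every library and Adgre1 at 0. In bulk RNA, fewer cells of a type and less RNA per cell cannot be told apart, and the part of these shifts in the results below was not tested.

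The genes of both cutting complexes were called higher, while of the Argonaute genes only Ago1 was called higher and only Ago3 lower. The call of Ago1 was lost when any Circ-INSR siRNA library was left out. Dicer1 rose most, to 1.74 times the control level, followed by Drosha at 1.33 times and Tarbp2 at 1.32 times, while Ago1 and Dgcr8 rose by less. Ago3 fell to 0.764 times the control level. Ago2, Ago4, Tnrc6a and Xpo5 did not pass the test. In all, 5 of the 10 genes were higher and 1 was lower at an adjusted p under 0.05 (edgeR quasi-likelihood test, Benjamini-Hochberg adjustment over all 16666 genes). Among all genes tested 57.0% were called, 28.5% higher and 28.5% lower, so 6 of 10 is close to the background. The median log2 fold change was 0.15 over the 10 genes and 0.00 over all genes, and the median size without regard to sign was 0.20 over the 10 genes and 0.29 over all genes. The groups did not overlap in CPM for 7 of the 10 genes, 6 higher and 1 lower, compared with 63.3% of all genes, 32.0% higher and 31.3% lower. Without control replicate 3, the test called 9 of the 10 genes, 5 higher and 4 lower, where 59.8% of all genes were called.

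**Figure D1:**
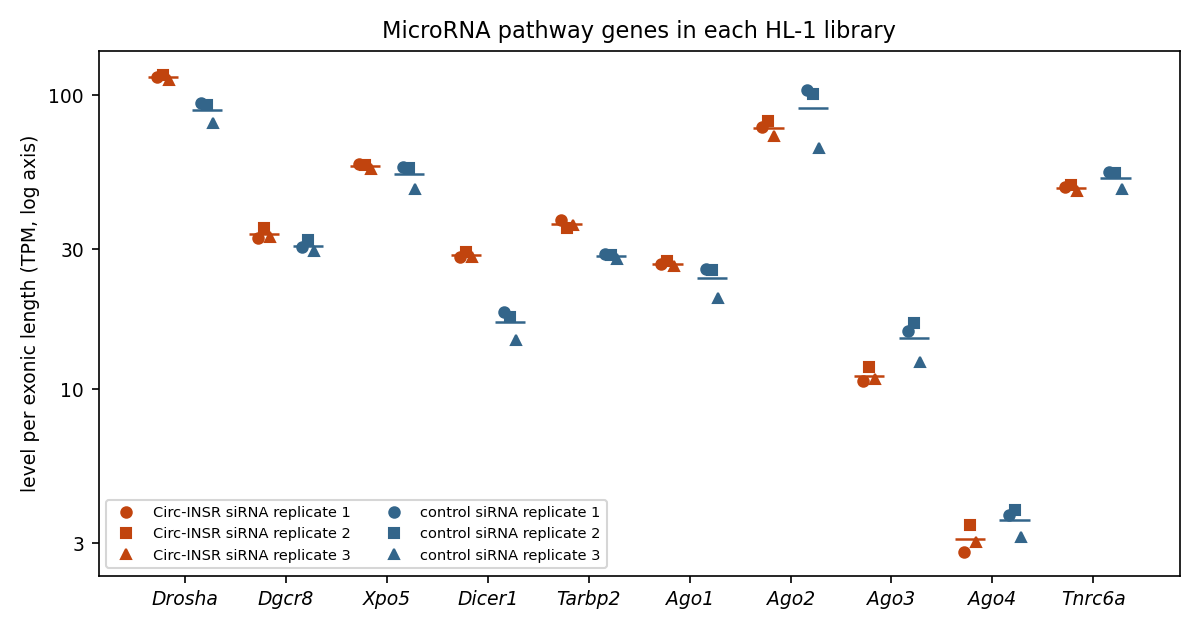
Level of each gene per exonic length (TPM, log axis) in the 3 Circ-INSR siRNA libraries (red) and the 3 control siRNA libraries (blue); symbols mark the replicates and horizontal lines the group means. The points of Dicer1, Drosha and Tarbp2 lie wholly above those of the controls, those of Ago3 lie below, and control replicate 3 is the lowest control for Ago2, at 66.1 TPM against 104.5 and 101.3 TPM in the other controls.

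Drosha encodes the nuclease of the Microprocessor (ENSMUSG00000022191, mm10 chromosome 15, 12824815 to 12935291, plus strand). It had 199.8, 200.4 and 195.8 CPM after Circ-INSR siRNA, against 156.6, 153.5 and 137.6 CPM after control siRNA. The groups did not overlap, with every treated library well above every control. This was a log2 fold change of 0.41 (SE 0.05; edgeR adjusted p = 3.42e-05), and 0.36 (SE 0.04) without control replicate 3. Across the 16 alternative fits it stayed between 0.36 and 0.45 and was called in each.

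Dgcr8, which encodes the RNA-binding partner that anchors the hairpin (ENSMUSG00000022718, chromosome 16, 18253948 to 18289246, minus strand), rose by a smaller step. It had 73.6, 77.9 and 74.2 CPM after Circ-INSR siRNA and 65.6, 69.7 and 65.6 CPM after control siRNA. The groups did not overlap, but the gap between them was narrow. Its log2 fold change was 0.17 (SE 0.05; edgeR adjusted p = 0.00829), with 0.16 (SE 0.04) without control replicate 3 and an adjusted p of up to 0.0496 when other libraries were left out. With offsets that take out each library's dependence on gene length and GC content (called the length and GC trend below), it was 0.10 (adjusted p = 0.0309). The TPM ratio of Drosha to Dgcr8 in a library was 3.52, 3.34 and 3.42 after Circ-INSR siRNA and 3.10, 2.86 and 2.72 after control siRNA, so it was higher in every treated library than in any control; this ratio was not tested. Of the exonic bases of Dgcr8, 10.7% are shared with Trmt2a on the opposite strand, which had 3605 to 4019 counts in a library. The strand setting of the counting is not given, so reads from these bases may have been lost or assigned to either gene.

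The Dgcr8 mRNA itself carries a microRNA hairpin, Mir1306, in an exon on the same strand (chr16:18284239-18284317, minus strand), and the Microprocessor is known to cut hairpins in this mRNA. The counts do not resolve cut from uncut mRNA, and the separate Mir1306 entry had 0 counts in every library. Reads from the shared bases may go to either entry or to neither, so the 0 does not show its level. Gm24572, another microRNA entry in Dgcr8 exons on the same strand, had 2 to 7 counts in a library. The mature arms of Mir1306 are printed to show the small RNAs that the transcript holds, with the seed, bases 2 to 8, in capitals (RefSeq, GRCm38.p6).
miR-1306-5p: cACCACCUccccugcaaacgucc
miR-1306-3p: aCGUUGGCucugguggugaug

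Xpo5 encodes Exportin-5, the carrier of hairpin precursors out of the nucleus (ENSMUSG00000067150, chromosome 17, 46202782 to 46243598, plus strand). It had 116.5, 114.0 and 112.6 CPM after Circ-INSR siRNA and 109.9, 108.9 and 94.8 CPM after control siRNA. In CPM the groups did not overlap. In TPM they did, with 56.1 in Circ-INSR siRNA replicate 3 against 57.1 and 56.7 in control replicates 1 and 2. The log2 fold change of 0.13 (SE 0.06) missed the threshold (edgeR adjusted p = 0.0720). Without control replicate 3 it was 0.07 (SE 0.04; adjusted p = 0.129), and without control replicate 1 it was 0.17 (adjusted p = 0.0257), so the call depends on which control is left out; 4 of the 16 alternatives called it.

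Dicer1 encodes the nuclease that cuts precursors to their mature length (ENSMUSG00000041415, chromosome 12, 104687742 to 104751952, minus strand). It had 137.0, 141.3 and 138.1 CPM after Circ-INSR siRNA, against 86.3, 82.8 and 70.9 CPM after control siRNA. The treated libraries lay close together and far above every control. Dicer1 thus had a log2 fold change of 0.80 (SE 0.06; edgeR adjusted p = 9.31e-07), above that of 94.8% of all genes tested. It was 0.72 (SE 0.04) without control replicate 3 and between 0.71 and 0.85 across all 16 alternatives, called in each.

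Tarbp2 encodes TRBP, the double-stranded RNA binding partner of DICER (ENSMUSG00000023051, chromosome 15, 102518192 to 102523676, plus strand). It had 49.9, 46.3 and 48.3 CPM after Circ-INSR siRNA and 36.8, 36.4 and 36.5 CPM after control siRNA. The controls, replicate 3 included, were nearly equal and all lay below the treated libraries. Its log2 fold change was 0.40 (SE 0.05; edgeR adjusted p = 1.76e-05), the same to 2 decimals without control replicate 3, and it was called in all 16 alternatives. The TPM ratio of Dicer1 to Tarbp2 was 0.746, 0.828 and 0.777 after Circ-INSR siRNA and 0.637, 0.618 and 0.528 after control siRNA, a difference that was not tested. Prkra, which encodes PACT, the other such partner of DICER and named here outside the rule for named genes, averaged 20.7 ± 0.771 CPM after Circ-INSR siRNA and 20.9 ± 1.41 CPM after control siRNA (SD, n = 3 each), with a log2 fold change of -0.01 (SE 0.06; edgeR adjusted p = 0.868).

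**Figure D2:**
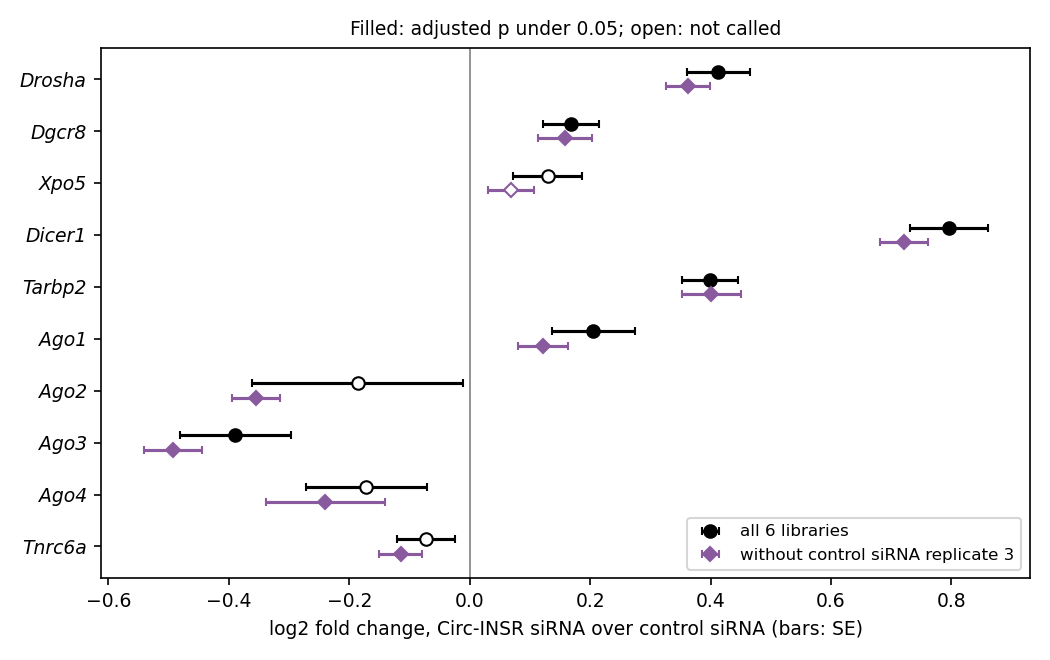
Log2 fold change of each gene, Circ-INSR siRNA over control siRNA (points; bars are SE), with all 6 libraries (black circles) and without control siRNA replicate 3 (purple diamonds); filled symbols passed an adjusted p of 0.05. The value of Ago2 was -0.19 (open) with all libraries and -0.35 (filled) without that control, whereas Tarbp2 was at 0.40 in both.

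Of the 4 Argonaute genes, Ago2 encodes the one known in mammals for cutting fully paired targets, which is how an siRNA acts. Ago2 (ENSMUSG00000036698, chromosome 15, 73095844 to 73184935, minus strand) had 317.6, 329.5 and 298.6 CPM after Circ-INSR siRNA, against 411.0, 397.8 and 267.0 CPM after control siRNA. Control replicates 1 and 2 lay above every treated library and control replicate 3 lay below them all. With 6 libraries the log2 fold change was -0.19 (SE 0.17; edgeR adjusted p = 0.413). Without control replicate 3 it was -0.35 (SE 0.04; adjusted p = 3.45e-07), so this library decides whether Ago2 is called. With the length and GC trend removed, the value was -0.24 (adjusted p = 0.152).

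Ago1, Ago3 and Ago4 lie in a cluster on the minus strand of chromosome 4, in the order Ago3, Ago1 and Ago4 from the lower coordinate. Ago3 (ENSMUSG00000028842, 126331704 to 126429556) had 51.3, 56.8 and 52.4 CPM after Circ-INSR siRNA and 73.3, 77.8 and 59.1 CPM after control siRNA. All treated libraries lay below all controls. Ago3 had a log2 fold change of -0.39 (SE 0.09; edgeR adjusted p = 0.00566), with -0.49 (SE 0.05) without control replicate 3 and a call in all 16 alternatives.

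Its neighbour Ago1 (ENSMUSG00000041530, 126435012 to 126468583) went the other way. It had 63.1, 63.5 and 62.4 CPM after Circ-INSR siRNA and 58.4, 57.8 and 47.7 CPM after control siRNA. The groups did not overlap, and without control replicate 3 the gap was small. The log2 fold change was 0.21 (SE 0.07; edgeR adjusted p = 0.0234), and it was 0.12 (SE 0.04; adjusted p = 0.0174) without control replicate 3. The call was lost when any Circ-INSR siRNA library was left out, at adjusted p from 0.0515 to 0.0671.

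Ago4 (ENSMUSG00000042500, 126489541 to 126533472) was the lowest Argonaute per exonic length. It had 5.66, 6.90 and 6.16 CPM after Circ-INSR siRNA and 7.27, 7.53 and 6.31 CPM after control siRNA, with overlapping groups. The log2 fold change of -0.17 (SE 0.10) was not called (edgeR adjusted p = 0.167), but it was -0.24 and called without control replicate 3 (adjusted p = 0.0455) and with the length and GC trend removed (adjusted p = 0.0332).

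The TPM ratio of Ago1 to Ago3 was 2.51, 2.28 and 2.43 after Circ-INSR siRNA, against 1.63, 1.52 and 1.65 after control siRNA. Control replicate 3 lay with the other controls in this ratio, unlike in the levels of Ago1 and Ago3. The 200 bases before the RefSeq start site of these neighbours are printed because they went in opposite directions, with each GGGCGG box, read on either strand, in capitals (RefSeq, GRCm38.p6; for Ago1 the one of its RefSeq starts that matches a GENCODE transcript, at chr4:126468584-126468783 and Ago3 at chr4:126429543-126429742, both minus strand).
Ago1: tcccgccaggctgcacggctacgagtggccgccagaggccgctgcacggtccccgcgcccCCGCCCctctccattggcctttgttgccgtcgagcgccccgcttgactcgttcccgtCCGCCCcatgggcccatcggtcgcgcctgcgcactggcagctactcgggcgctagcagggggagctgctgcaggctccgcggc
Ago3: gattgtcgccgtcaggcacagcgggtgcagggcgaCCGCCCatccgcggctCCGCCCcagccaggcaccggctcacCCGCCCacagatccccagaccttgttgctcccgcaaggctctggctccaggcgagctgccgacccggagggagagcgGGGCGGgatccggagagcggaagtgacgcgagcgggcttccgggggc
Both windows hold the box, which stood in the 250 bases before the start site of 7 of the 9 genes found in the RefSeq table and of 32.9% of 27025 promoters. The motif TATAAA, on either strand, stood in 0 of the 9 and in 13% of all promoters. These 9 windows held 9 to 46 CG pairs, against a median of 6. The 27025 promoters were taken whether or not their gene was expressed here, whereas all 9 genes passed the filter on low counts. No share was taken among expressed genes alone, so these contrasts do not show a trait of this pathway. A match is a description of the letters and says nothing about which factor binds.

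TPM is the count per kilobase of exon, scaled to the same total in each library, so it allows genes of different length to be compared. The 4 Argonautes together had 117.9, 124.5 and 112.9 TPM after Circ-INSR siRNA and 149.7, 147.4 and 102.1 TPM after control siRNA. The treated values lay between those of control replicate 3 and of the other controls. Ago2 made up 66.0%, 65.7% and 64.5% of that sum after Circ-INSR siRNA and 69.8%, 68.7% and 64.8% after control siRNA. The difference in its mean share was -2.39 percentage points, with p = 0.3 in an exact two-sided permutation test over the 6 libraries, where 0.1 is the smallest p possible. The share of Ago1 was 22.6%, 21.9% and 23.3% after Circ-INSR siRNA and 17.2%, 17.3% and 20% after control siRNA. That of Ago3 was 9.02%, 9.60% and 9.58% after Circ-INSR siRNA and 10.5%, 11.4% and 12.1% after control siRNA. So Ago1 took a larger part of the family and Ago3 a smaller one in every treated library, control replicate 3 included in the comparison; these shares were not tested.

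**Figure D3:**
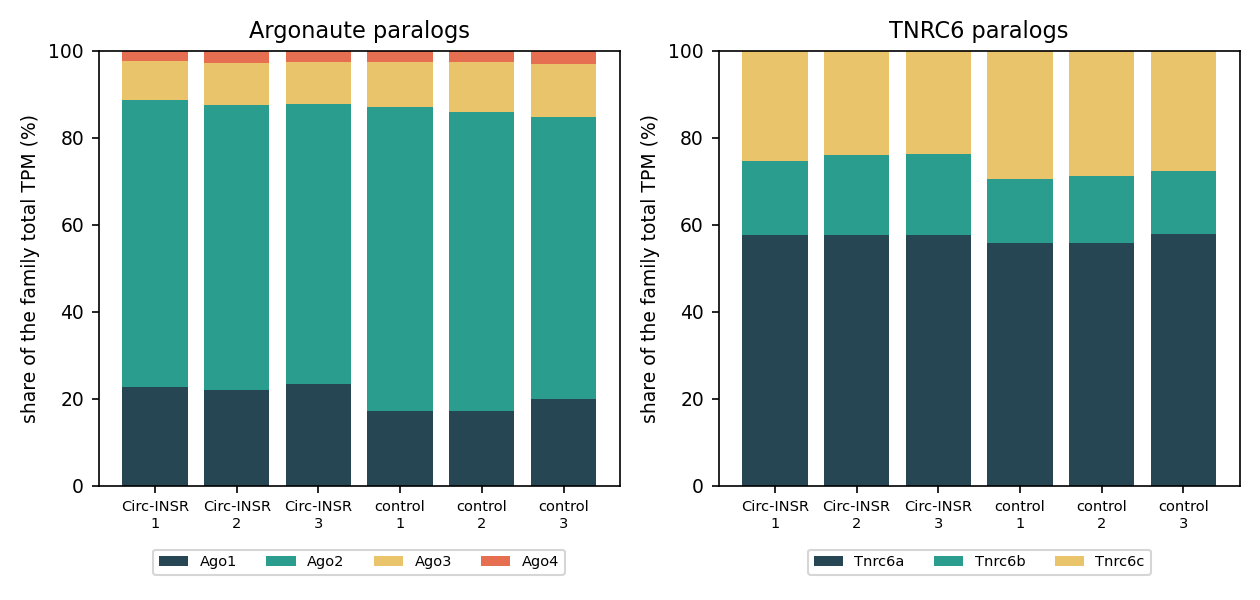
Share of each paralog in the summed TPM of the Argonaute genes (left) and of the TNRC6 genes (right), in percent, 1 bar for each library with the 3 Circ-INSR siRNA libraries left of the 3 controls. The Ago1 share is 21.9% to 23.3% in treated and 17.2% to 20% in control libraries, and the Tnrc6c share is 23.7% to 25.4% in treated and 27.5% to 29.6% in control libraries.

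Tnrc6a encodes a GW182 protein, the scaffold that links Argonaute to deadenylases (ENSMUSG00000052707, chromosome 7, 123123885 to 123195296, plus strand). It had 179.9, 181.2 and 176.0 CPM after Circ-INSR siRNA and 195.9, 193.1 and 175.9 CPM after control siRNA. Control replicate 3 lay just below the lowest treated library and the other controls lay above them all. The log2 fold change was -0.07 (SE 0.05; edgeR adjusted p = 0.227), and 3 of the 16 alternatives called it, among them the fit without control replicate 3, at -0.11 (SE 0.04; adjusted p = 0.00977), and the fit with the length and GC trend removed, at -0.16 (adjusted p = 0.000344). Its paralogs, named outside the rule, moved apart. Tnrc6b averaged 103.7 ± 4.4 CPM after Circ-INSR siRNA and 92.5 ± 8.46 CPM after control siRNA (SD, n = 3 each), which gave 0.16 as the log2 fold change (SE 0.06; edgeR adjusted p = 0.0455); it was not called in 7 alternatives, among them without control replicate 3 (adjusted p = 0.0615). Tnrc6c averaged 76.5 ± 3.62 CPM after Circ-INSR siRNA and 96.8 ± 10.8 CPM after control siRNA, a log2 fold change of -0.34 (SE 0.07; edgeR adjusted p = 0.00214), and -0.42 without control replicate 3. The summed TPM of the 3 paralogs was 84.5, 86.2 and 82.1 after Circ-INSR siRNA and 98.6, 97.2 and 83.1 after control siRNA.

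Ranked by mean TPM over the union of exons, the order after Circ-INSR siRNA was Drosha, Ago2, Xpo5, Tnrc6a, Tarbp2, Dgcr8, Dicer1, Ago1, Ago3 and Ago4, from 115.4 TPM for Drosha to 3.10 TPM for Ago4. With that length no neighbours in the order overlapped between libraries. After control siRNA the order was Ago2, Drosha, Xpo5, Tnrc6a, Dgcr8, Tarbp2, Ago1, Dicer1, Ago3 and Ago4, from 90.6 to 3.59 TPM. There Ago2 overlapped with Drosha, Xpo5 with Tnrc6a, and Dicer1 with Ago3. Dicer1 averaged 28.6 TPM after Circ-INSR siRNA and 16.9 TPM after control siRNA over the union of its exons, which at 16750 bases is much longer than its longest transcript of 9851 bases. With the longest transcript as the length, Dicer1 averaged 36.9 TPM after Circ-INSR siRNA and 21.8 TPM after control siRNA and ranked above Ago1 in both groups, with overlapping libraries after control siRNA. After Circ-INSR siRNA, Ago2 then overlapped with Xpo5, Xpo5 with Tnrc6a, and Tarbp2 with Dgcr8. After control siRNA the order then began Drosha, Ago2, Tnrc6a and Xpo5, each overlapping with the next of these 4.

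Among 87 further genes of the machinery, listed by step, 80 were tested, of which 41 were higher, 10 were lower and 29 were not called. Their median log2 fold change was 0.15, against 0.00 over all genes. In these lists 63.7% were called, against 57.0% of all genes, 28.5% in each direction. Overlapping and near-identical genes (pseudogene copies of Hspa8, Hsp90ab1 and Hnrnpa1, for example) make single values uncertain.

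**Figure D4:**
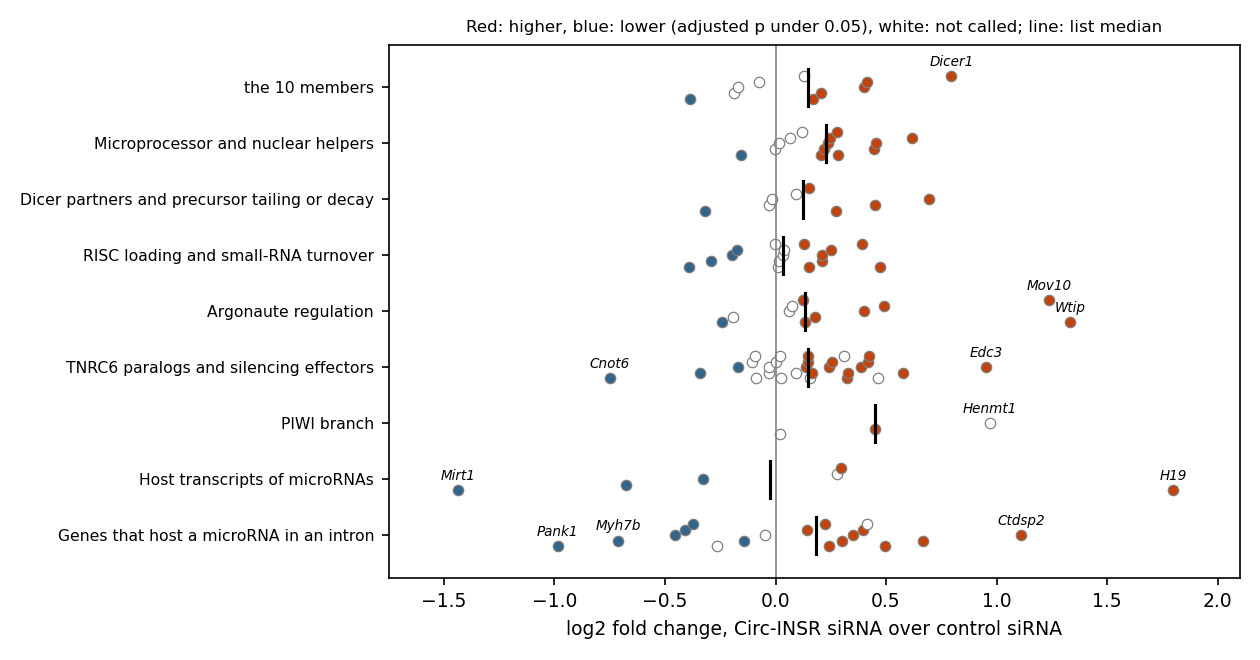
Log2 fold change, Circ-INSR siRNA over control siRNA, of each tested gene in the 10 described here and in the further lists; red points were higher and blue points lower at an adjusted p under 0.05, white points were not called, and black lines mark list medians. Medians lie at 0.15 for the 10 genes and at 0.23 for the nuclear helpers of the Microprocessor. H19, Wtip, Mov10 and Ctdsp2 lie above 1, with H19 highest at 1.80, and Mirt1 lies lowest at -1.44.

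Helpers of the Microprocessor in the nucleus were higher in 9 of 14 cases and lower in 1, with a median of 0.23. In this list 71.4% were called, against 57.0% of all genes, 28.5% in each direction. Ncbp1 and Ncbp2 encode the cap-binding complex, which together with SRRT hands primary transcripts to the Microprocessor. Ncbp2 averaged 66.2 ± 3.47 CPM after Circ-INSR siRNA and 43.1 ± 2.09 CPM after control siRNA (SD, n = 3 each), which gave 0.62 as the log2 fold change (SE 0.05). Khsrp and Hnrnpa1, whose proteins bind hairpin loops, rose by 0.45 and 0.46 on the log2 scale, with SE 0.05 and 0.04, and Ncbp1 rose by 0.28 (SE 0.04). The edgeR adjusted p of these 4 genes ran from 6.64e-07 to 7.41e-05.

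Of 10 genes of DICER partners and of precursor tailing or decay, 8 were tested, with 4 higher and 1 lower. Called genes made up 62.5% of those tested, near the 57.0% of all genes, which was 28.5% in each direction. Tent2, a cytoplasmic poly(A) polymerase gene that tails small RNAs, averaged 48.9 ± 1.29 CPM after Circ-INSR siRNA and 30.2 ± 1.02 CPM after control siRNA (SD, n = 3 each), which gave 0.70 as the log2 fold change (SE 0.05; edgeR adjusted p = 2.55e-07). Tut7, a terminal uridylyltransferase gene, fell by 0.32 (SE 0.07; edgeR adjusted p = 0.00190). Tut4, its paralog and named outside the rule, rose by 0.15 (SE 0.06; edgeR adjusted p = 0.0398) but was not called in 6 alternatives, for example at 0.04 with the length and GC trend removed. Trim25 rose by 0.45 (SE 0.10), a call lost without control replicate 3 (adjusted p = 0.108). Dis3l2, the nuclease gene for uridylated precursors, rose by 0.27 (SE 0.08; edgeR adjusted p = 0.0105), and its call was lost without control replicate 2 (adjusted p = 0.0537) and with the length and GC trend removed (adjusted p = 0.128). Lin28b, which blocks let-7 precursors, was at 0 in all libraries. Lin28a had 8, 16 and 14 counts after Circ-INSR siRNA and 0, 2 and 2 counts after control siRNA, with no overlap. It did not pass the filter on low counts with all libraries. Without control replicate 3 it passed, but only through its counts after Circ-INSR siRNA, so its call in that fit gives no support for a rise.

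Chaperones that load Argonaute and enzymes of small-RNA turnover were higher in 7 of 16 cases and lower in 4, with a median of 0.04. Called genes made up 68.8% of this list and 57.0% of all genes, the latter 28.5% in each direction. Hspa8 and Hsp90ab1, which encode chaperones of the loading machine, rose by 0.47 and 0.39 (SE 0.03 each). Tdrd7, a Tudor domain gene, and Dnaja2, a co-chaperone gene, fell by 0.39 and 0.29, with SE 0.06 and 0.05. The edgeR adjusted p of these 4 genes ran from 1.85e-07 to 0.000509.

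Of genes that act on Argonaute 7 of 11 were higher and 1 was lower, with a median of 0.13. Called genes made up 72.7% of this list and 57.0% of all genes, the latter 28.5% in each direction. Mov10 encodes a helicase that associates with Argonaute. It averaged 60.75 ± 7.97 CPM after Circ-INSR siRNA and 25.8 ± 1.09 CPM after control siRNA (SD, n = 3 each), which gave 1.24 as the log2 fold change (SE 0.09; edgeR adjusted p = 8.20e-07). Wtip and Ajuba belong to the LIM proteins that bridge Argonaute and TNRC6 in human cells. Wtip averaged 65.9 ± 2.64 CPM after Circ-INSR siRNA and 26.2 ± 0.432 CPM after control siRNA, a log2 fold change of 1.33 (SE 0.05; edgeR adjusted p = 3.15e-09), and Ajuba rose by 0.49 (SE 0.05). Ipo8, an import receptor gene, rose by 0.18 (SE 0.04; edgeR adjusted p = 0.00325), and was not called with the length and GC trend removed, at 0.07 (adjusted p = 0.243).

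Of TNRC6 paralogs and silencing effectors 13 of 28 were higher and 3 lower, with a median of 0.15. In this list 57.1% were called, which is the background, at 57.0% of all genes. Of the 11 Cnot genes, which encode the CCR4-NOT deadenylase complex, 5 were higher, 2 were lower and 4 were not called. Over all genes 28.5% were called in each direction. Cnot6, a catalytic subunit of the CCR4-NOT complex, averaged 97.3 ± 5.25 CPM after Circ-INSR siRNA and 163.6 ± 10.2 CPM after control siRNA (SD, n = 3 each), which gave -0.75 as the log2 fold change (SE 0.06; edgeR adjusted p = 5.62e-07). Cnot11, another subunit of that complex, rose by 0.42 (SE 0.05), and Cnot1, its scaffold and named outside the rule, by 0.57 (SE 0.08). Edc3, an enhancer of decapping, rose by 0.95 (SE 0.07; edgeR adjusted p = 3.73e-07); 22.1% of its exonic bases are shared with Clk3 on the opposite strand. Eif4e2, a cap-binding repressor gene, rose by 0.42 (SE 0.04). Of 8 genes of the PIWI branch, whose proteins are Argonaute relatives best known from germ cells, 3 were tested. Of these 33.3% were called, against 57.0% of all genes, and Tdrd9 and Henmt1 were not called. Piwil2 rose, with 105.8 ± 4.92 CPM after Circ-INSR siRNA and 77.6 ± 5.04 CPM after control siRNA, a log2 fold change of 0.45 (SE 0.06; edgeR adjusted p = 3.12e-05).

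Mature microRNAs are not measured in poly(A) libraries, but genes whose transcripts hold their hairpins are. Of 22 listed host transcripts 13 were found among the IDs and 6 were tested, with 2 higher and 3 lower, against 28.5% of all genes in each direction. H19, which holds miR-675, averaged 89.4 ± 3.42 CPM after Circ-INSR siRNA and 25.7 ± 2.42 CPM after control siRNA (SD, n = 3 each), which gave 1.80 as the log2 fold change (SE 0.07; edgeR adjusted p = 3.20e-09). Mir22hg, which holds miR-22, changed by -0.68 (SE 0.08; edgeR adjusted p = 1.26e-05), and 10.7% of its exonic bases are shared with Tlcd2 on the same strand. Mir99ahg, the host of let-7c and miR-99a, rose by 0.30 (SE 0.10; edgeR adjusted p = 0.0257), a call lost in 6 alternatives, among them any left-out library other than control replicate 3 and Circ-INSR siRNA replicate 3. Mirt1 changed by -1.44 (SE 0.13; edgeR adjusted p = 2.74e-06); it is a long noncoding RNA named for myocardial infarction, with no annotated hairpin inside it, and stands in the list only by its name. Dleu2, named outside the rule, changed by -0.33 (SE 0.12; edgeR adjusted p = 0.0322), and its call was lost without control replicate 3 (adjusted p = 0.126) and without Circ-INSR siRNA replicate 2 or 3 (adjusted p = 0.128 and 0.0674).

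Of 18 protein-coding hosts 9 were higher and 6 lower, with a median of 0.18. So 83.3% were called, against 57.0% of all genes, 28.5% in each direction. In Dnm2, one of the 6 lower genes, and in Dnm3, which was not called, the annotated hairpins lie on the opposite strand, so these mRNAs do not carry them. Ctdsp2, which holds a hairpin of miR-26a, averaged 164.0 ± 3.79 CPM after Circ-INSR siRNA and 75.96 ± 3.16 CPM after control siRNA (SD, n = 3 each), which gave 1.11 as the log2 fold change (SE 0.05). Ctdspl, named outside the rule, holds another hairpin with the same mature miR-26a and was not called, at a log2 fold change of -0.05. Nfyc, which holds hairpins of miR-30c and miR-30e, rose by 0.67 (SE 0.04). Myh6, the atrial myosin heavy chain gene that holds miR-208a, rose by 0.50 (SE 0.05). Myh7, which holds miR-208b, rose by 0.35 (SE 0.05) and Myh7b, which holds miR-499, fell by 0.71 (SE 0.12). Both are named outside the rule, and the Myh6 and Myh7 mRNAs are similar enough that reads may be shared. Myh7b was low, with means of 2.345 CPM after Circ-INSR siRNA and 3.85 CPM after control siRNA. Those of Myh6 were 2205 and 1564 CPM, and those of Myh7 were 69.6 and 54.6 CPM. The edgeR adjusted p of Ctdsp2, Nfyc, Myh6, Myh7 and Myh7b ran from 6.45e-09 to 0.000329. The mature strands they hold are printed because the muscle microRNAs share all or most of a seed while their hosts went in opposite directions; the seed is in capitals (RefSeq, GRCm38.p6; in printed order chr14:54949072-54949093, chr14:54975710-54975731, chr2:155622893-155622913, chr10:126995543-126995564 in Ctdsp2, chr4:120769584-120769606 and chr4:120772660-120772681, with miR-499 and miR-26a on the plus and the others on the minus strand).
miR-208a-3p: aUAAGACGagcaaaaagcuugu
miR-208b-3p: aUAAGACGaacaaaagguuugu
miR-499-5p: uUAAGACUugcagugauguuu
miR-26a-5p: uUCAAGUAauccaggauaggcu
miR-30c-5p: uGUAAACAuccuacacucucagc
miR-30e-5p: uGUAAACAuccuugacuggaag

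Pank1 and Pank3, pantothenate kinase genes, hold miR-107 and a hairpin of miR-103, microRNAs that are known to repress Dicer mRNA in human cancer cells. Pank1 averaged 26.8 ± 0.621 CPM after Circ-INSR siRNA and 53.0 ± 2.33 CPM after control siRNA (SD, n = 3 each), which gave -0.98 as the log2 fold change (SE 0.05; edgeR adjusted p = 2.43e-08). Pank3, named outside the rule, averaged 78.0 ± 3.48 CPM after Circ-INSR siRNA and 103.6 ± 10.1 CPM after control siRNA, a log2 fold change of -0.41 (SE 0.07; edgeR adjusted p = 0.000247). The mature strands are equal at 22 of 23 bases and share their seed (RefSeq, GRCm38.p6; chr19:34820700-34820722, minus strand, and chr11:35782447-35782469, plus strand).
miR-107-3p: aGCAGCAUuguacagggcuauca
miR-103-3p: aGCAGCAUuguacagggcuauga

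The 7-base match to that seed, ATGCTGC on the mRNA strand, was looked up after these values were seen, in the longest annotated 3′ UTR of each gene. It stood in 7 of the 10 genes, at 8 places, and in 11.5% of all genes with a 3′ UTR of at least 50 bases. Long 3′ UTRs hold it more often, and among 1779 genes with a 3′ UTR about as long as that of Dicer1, at 3851 bases, the share was 27.5%. No such share was taken for the other genes, so the 7 of 10 has no background of matched length. Per kilobase of 3′ UTR, all genes together had 0.0875 matches. Ago3 had 0.0785, Ago2 0.181, Ago1 0.223, Dicer1 0.26, Ago4 0.272, Dgcr8 0.635 and Tarbp2 2.99. Each of these rates rests on 1 match, or on 2 in Ago2, and they were not tested. The 3′ UTRs of these genes ran from 169 bases in Drosha to 12742 bases in Ago3, and the match was not in those of Drosha, Xpo5 and Tnrc6a. Genes with a match included Dicer1, Tarbp2, Dgcr8 and Ago1, which rose, and Ago3, which fell, as well as Ago2 and Ago4, which were not called. The matches in called genes are printed in capitals with the bases around them (GENCODE M21, GRCm38; Tarbp2 on the plus and the others on the minus strand), to show the candidate pairing sites; a match is not evidence that the site is used.
Dicer1, chr12:104690169-104690191: ctgatgcttcatgtaATGCTGCa
Tarbp2, chr15:102523569-102523591: tggagtcctgaataaATGCTGCt
Dgcr8, chr16:18254044-18254066: cttatatgtacagtcATGCTGCa
Ago1, chr4:126438740-126438762: cttcccgcaacggtaATGCTGCa
Ago3, chr4:126341738-126341760: gggaattaaaaccagATGCTGCt
The levels of mature miR-103 and miR-107 were not measured, and their part in the Dicer1 value was not tested.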

How the data were processed

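The deposited values are whole-number read counts for each Ensembl gene ID, with no normalization by the authors to judge by the values. Per the labels' protocols, poly(A) RNA was selected and directional libraries were made. The submitters' processing notes name mm10, STAR 2.5.0c and featureCounts 1.6.4, with no role or order. Which annotation, strand setting and treatment of multiply mapped reads the counting used is not stated in these sources. In every file more genes had a count of 2 than of 1, as when both mates are counted, so halved counts were also tested.

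Symbols and exons came from GENCODE M21 on the same build, which held 95.33% of the IDs. All genes were fitted with edgeR 4.0.16 in R 4.3.3: filterByExpr (minimum count 10, minimum total 15), trimmed mean of M values, and the robust quasi-likelihood test with group as the only term, adjusted over all genes by Benjamini-Hochberg at 0.05. SE was taken as log2 fold change over √F. The steps were tested on simulated counts. DESeq2 1.42.0 and limma 3.58.1 were alternatives. Named genes were the 10 members and, from each further list, up to 4 called genes with the smallest adjusted p. The members and lists were chosen with earlier results of these data known.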

Additional observations from a re-analysis of the deposited data

How the results depend on the processing

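Alternatives were 3 other scalings, 2 other filters, DESeq2, limma-voom, halved counts, offsets for gene length and GC content, the replicate number as a block, and each library left out in turn. Dicer1, Drosha, Dgcr8, Tarbp2 and Ago3 kept their direction and their call in all 16. The count of lower genes among the 10, which was 1, became 2 with total-count scaling, 3 with the length and GC trend removed, and 1 to 4 when a library was left out, with 4 without control replicate 3; the cause was not tested. The count of higher genes stayed between 4 and 6. Same-numbered libraries of the groups had deviations that correlated at 0.02, 0.07 and 0.04, too little to treat them as pairs, although each library correlated best with its own number. With the replicate block, 6 of the 10 genes were higher and 1 lower, and 4968 and 4900 of all genes. The log2 fold change of Prkra was 0.02 without Circ-INSR siRNA replicate 1 and 0.043 without control replicate 3, in a range from -0.059 to 0.043 over the left-out libraries. The difference in the Ago2 share stayed negative, from -3.89 to -0.88 percentage points. With 3 libraries a group, the smallest exact permutation p is 0.1.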

Other observations

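Piwil2, a PIWI gene best known from germ cells, had a level between those of Ago1 and Ago2. Per exonic length it had 72.3, 69.0 and 65.7 TPM after Circ-INSR siRNA and 55.6, 52.6 and 47.6 TPM after control siRNA. In every library it was below Ago2, which had at least 72.8 TPM after Circ-INSR siRNA and 66.1 TPM after control siRNA. It was above Ago1 in every library, which had at most 27.3 TPM after Circ-INSR siRNA and 25.7 TPM after control siRNA. Its paralogs were near 0: Piwil1 had 0, 2 and 0 counts after Circ-INSR siRNA and 2, 2 and 0 counts after control siRNA, and Piwil4 had 2, 2 and 0 counts after Circ-INSR siRNA and 0, 2 and 4 counts after control siRNA. The exons of Piwil2 overlap those of no other annotated gene, and gene counts do not show which of its exons were read.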
